A study of Homo sapiens with 15 samples.

Results

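THP-1 cells exposed for 24 h to infliximab were compared with THP-1 cells exposed for 24 h to CDP870. The comparison takes the 3 arrays titled as infliximab at 24 h (replicates 5, 6 and 7) against the 3 titled as CDP870 at 24 h (replicates 11, 12 and 13), 6 of the 15 arrays of the series. The other 9 arrays are 3 each of unstimulated cells at 0 h, infliximab at 6 h and CDP870 at 6 h. They entered the fit, and they serve here to place the 24 h values beside 0 h and 6 h. All 54613 non-control probe sets of the array were eligible, and 28897 of them, from 13607 genes, were above the middle of their array often enough to be tested. THP-1 is a human line from an acute monocytic leukaemia, so all groups share 1 cell line. The sources used here state neither doses nor culture conditions, so equal dosing of the agents is not known. By the design text, arrays within a group are biological replicates.

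Both agents bind tumour necrosis factor (TNF), a cytokine that monocytes make and carry on their surface before it is shed. Infliximab is a whole chimeric IgG1 antibody with 2 antigen-binding arms and an Fc part, which Fc receptors on monocytes can bind. CDP870, known as certolizumab pegol, is a PEGylated Fab' fragment with 1 antigen-binding arm and no Fc part. Because both groups had the same time in culture, their difference leaves out what time alone does to the cells, within the limits of the labels. Many of the genes described here belong to the integrated stress response, in which phosphorylation of the initiation factor eIF2 slows general translation while the transcription factor ATF4 is translated more and switches on genes of amino acid synthesis and uptake and of tRNA charging. A separate branch of cell stress signalling, the unfolded protein response, raises the chaperones of the endoplasmic reticulum.

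Values are on the deposited log2 scale, on which a step of 1 is a doubling and the zero is unknown. The array medians lay between 2.93 and 3.07, so a value below about that level is in the lower part of its array. Of 17 monocyte markers with a probe set, 13 lay above the array's median on all 6 arrays, among them LYZ, ELANE, S100A8 and CSF3R. CD14 did so on 1 of the 6 arrays, and FCN1, VCAN and CD163 on none. In such bulk samples fewer cells of a type and less RNA per cell cannot be told apart. Hybridisation spike-ins, RNAs added in known amounts, averaged 7.75 ± 0.13 (SD, n = 3) with infliximab and 7.85 ± 0.16 with CDP870 (exact two-sided permutation p = 0.5, where 3 against 3 allows no p below 0.1).

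The 3 infliximab 24 h arrays were less alike than the 3 CDP870 arrays. The median SD of a probe set was 0.17 with infliximab and 0.119 with CDP870. Replicate 7 correlated with its own group at 0.9712 and 0.9817, but with the 3 infliximab 6 h arrays at 0.9935 to 0.9947 across the tested probe sets. The CDP870 24 h arrays correlated with each other at 0.9888 to 0.995. The array labelled infliximab 24 h replicate 7 was therefore nearer to the 6 h arrays than to the arrays it is labelled with. Replicates 5 and 6 correlated with each other at 0.9759, and with the infliximab 6 h arrays at 0.9693 to 0.9778 and 0.9763 to 0.9833. Replicate 6 also had poly-A spike-ins at 5.84, against 6.59 and 6.55 for replicates 5 and 7, and a GAPDH 3' minus 5' difference of 0.24, against -0.03 and -0.07. The part of these features in the results was not tested, and counts that replicate 7 moved by over 1.5 times are given with and without it. Fits with replicate 7 as the only infliximab 24 h array left out replicates 5 and 6 and also 0 h replicate 3.

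At 24 h the main difference between the agents was a set of large increases with infliximab in genes of amino acid supply and of the ATF4 programme, against smaller decreases in chaperone genes. Limma called 1882 of the 28897 probe sets at an adjusted p under 0.05 (6.51%), of which 1366 were higher with infliximab (4.73%) and 516 lower (1.79%). The calls covered 1375 named genes, and no gene had called probe sets in both directions. At least 2-fold higher were 184 called probe sets of 131 genes. At least 2-fold lower were 4, of which 2 belong to EIF5, 1 to HSPH1 and 1 has no single gene symbol. The median difference was 0.60 among the higher calls and -0.45 among the lower ones, and 0.00 over all tested probe sets (0.0033). The 3 and 3 values did not overlap in 1355 of the higher and 509 of the lower calls, beside 20.5% of all tested probe sets. Without replicate 7 the count rose to 2891, with 2119 higher and 772 lower. Counts of lists without replicate 7 stand beside this rise over all probe sets. Without CDP870 replicate 11, 12 or 13 it fell to 1105, 1074 or 1230. A fit of the 6 arrays alone called 331, all of them among the 1882. In 29 of the 184 probe sets at least 2-fold higher, every CDP870 24 h value lay below its array's median, a level not shown to be above background, and 24 of them were below it on all 0 h and CDP870 arrays, so that they were tested only through the infliximab arrays. For named genes of this kind the difference in deposited values is given without a fold. Of 79 called named genes with several tested probe sets, all probe sets were called in 32. In 8 a probe set that was not called had the opposite sign, namely in ATF5, ERN1, HEXA, MCM4, NOP16, SQSTM1, SREBF2 and UNK.

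**Figure D1:**
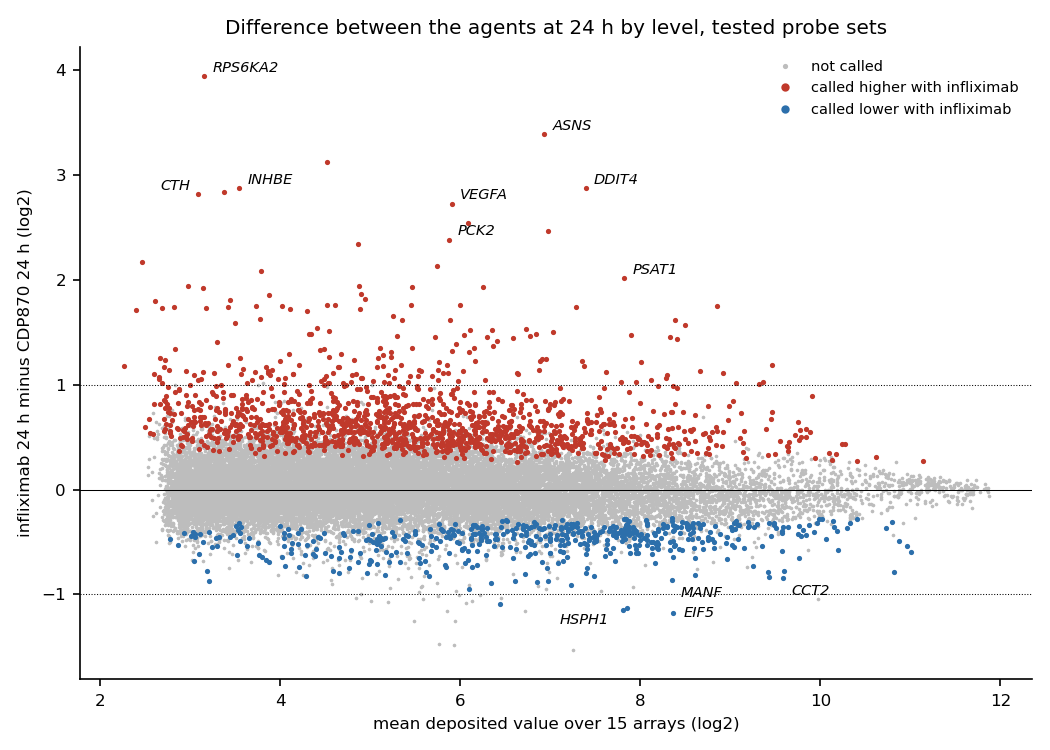
Each point is 1 tested probe set, with its mean over the 15 arrays on the x axis and the difference between infliximab and CDP870 at 24 h on the y axis, both in log2 units. Calls are coloured and dotted lines mark 2-fold. Of the calls past 2-fold, 184 lie above the upper line and 4 below the lower line.

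Amino acid synthesis genes stood highest among the groups described. Of 12 tested, 10 were higher with infliximab, 1 was lower and 1 did not pass, beside 6.06% of all tested genes called higher and 2.14% lower, with a median difference of 1.32 against 0.02 over all genes. In what follows, values are listed for infliximab replicates 5, 6 and 7 and then for CDP870 replicates 11, 12 and 13. ASNS, which makes asparagine from aspartate, read 8.82, 8.97 and 9.01 with infliximab and 5.65, 5.61 and 5.36 with CDP870. The 3 infliximab arrays lay far above all CDP870 arrays and close to each other, and the difference was 3.39 ± 0.11 (SE, n = 3 and 3), or 10.5-fold (limma adjusted p = 1.87e-10). Without replicate 7 it was 3.36.

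The serine pathway was higher at each of its steps. PHGDH, its first enzyme, read 9.28, 9.26 and 9.52 against 7.79, 7.73 and 7.69 (3.07-fold). PSAT1, the second, read 9.83, 10.04 and 9.92 against 8.10, 8.24 and 8.19 on the probe set that represents it (3.37-fold). Its other probe set differed by 2.02 ± 0.18. PSPH, the last step, differed by only 0.50. SHMT2 and MTHFD2, which move the carbon of serine into mitochondrial folate, differed by 1.01 and 1.03. ALDH1L2, a mitochondrial folate enzyme, read 6.22, 6.53 and 6.38 against 3.64, 3.46 and 2.64, a difference of 3.13 ± 0.19 (adjusted p = 2.59e-07). Replicate 13 of CDP870 was the lowest of its 3 values by a wide margin, and the groups were still clearly apart.

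Transsulfuration, which turns homocysteine into cysteine, was also higher. CBS, its first enzyme, read 7.51, 7.13 and 6.73 against 5.07, 5.03 and 4.86 (2.14 ± 0.15). A second probe set differed by 1.93, and the third, which was not called, by 0.22. CTH, its second enzyme, read 4.75, 5.08 and 4.56 against 1.98, 1.91 and 2.04, so that all CDP870 values were below the array medians. The difference in deposited values was 2.82 ± 0.22, and a second probe set gave 1.74. PCK2, the mitochondrial PEP carboxykinase, read 7.45, 7.17 and 7.19 against 5.04, 4.75 and 4.86 (5.23-fold, adjusted p = 9.09e-09). PYCR1 of proline synthesis was higher by 0.49, while ALDH18A1 of the same pathway was lower by 0.34, and neither of these calls held each time 1 array was left out. GOT1 differed by 0.28 and did not pass.

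**Figure D2:**
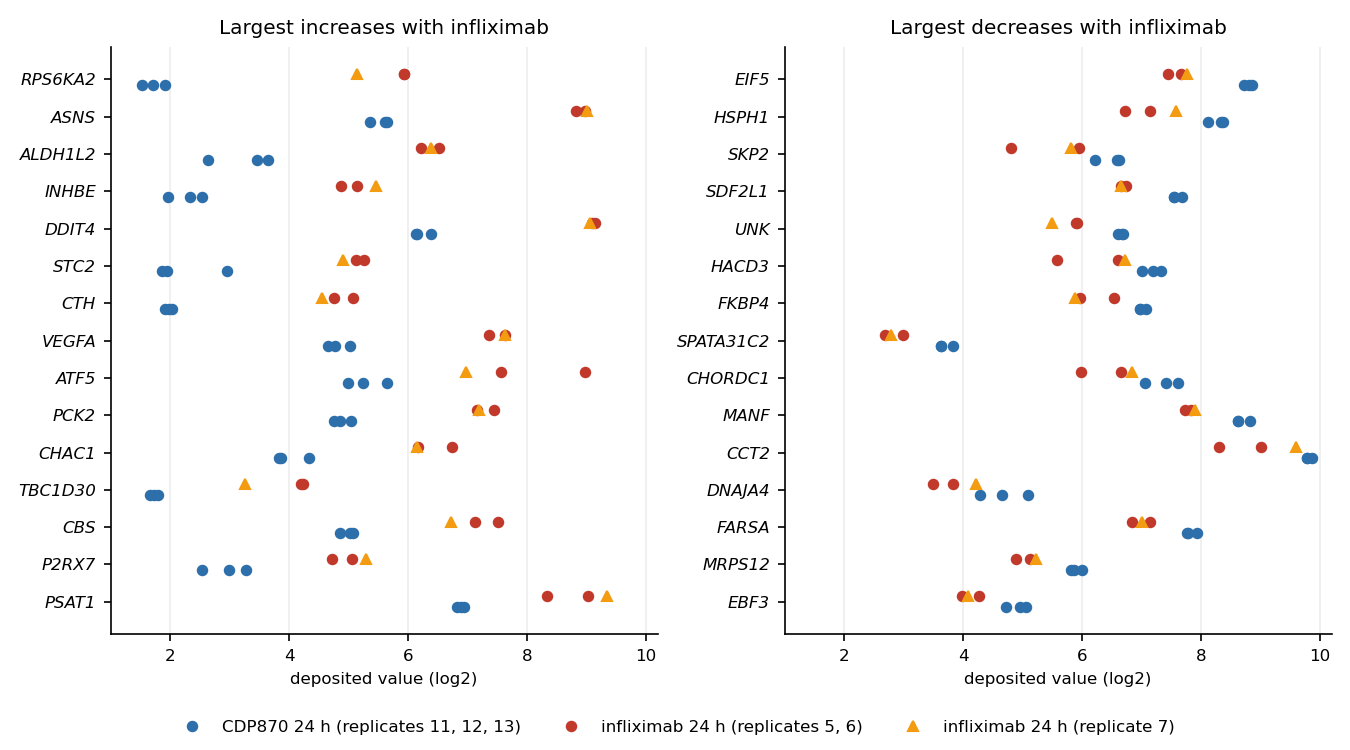
Values on the 6 arrays at 24 h (x axis, deposited log2 value) for the 15 largest increases and the 15 largest decreases with infliximab among calls with 1 gene symbol and no overlap between groups. Red circles and orange triangles are infliximab, with the triangle for replicate 7, and blue circles are CDP870. For SKP2, HACD3 and CCT2 replicate 7 sits nearer to the CDP870 values than the lowest infliximab value does.

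Amino acid transporters followed the same direction. Of 10 tested, 9 were higher (6.06% of all tested genes were), none was lower and 1 did not pass, with a median of 0.98. SLC7A5 and SLC3A2 form the leucine transporter LAT1, and SLC7A11 pairs with SLC3A2 in cystine uptake. SLC7A5 read 8.93, 9.0 and 8.55 against 7.38, 7.21 and 7.46 (2.78-fold). SLC3A2 read 8.02, 8.11 and 8.15 against 6.96, 6.95 and 6.68 (2.35-fold). SLC7A11 read 7.18, 7.92 and 7.48 against 6.12, 6.11 and 6.00 (2.73-fold). The groups were apart in all 3 genes, with the infliximab arrays closest to each other in SLC3A2. SLC1A4 and SLC1A5, carriers of small neutral amino acids, differed by 1.25 and 0.97, SLC38A1 and SLC38A2 by 0.99 and 0.64, the arginine and lysine carrier SLC7A1 by 0.80 and SLC43A1 by 0.46. SLC36A1 did not pass (-0.06).

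The aminoacyl-tRNA synthetases, which charge tRNAs with amino acids, split by member. Of 17 cytosolic enzymes tested, 9 were higher (6.06% of all genes were), 1 was lower (2.14%) and 7 did not pass. The list's median was 0.47. CARS1 for cysteine read 9.01, 9.28 and 9.19 against 7.76, 7.66 and 7.68 (2.75-fold, adjusted p = 2.74e-07). WARS1 for tryptophan read 9.19, 9.34 and 9.39 against 7.81, 7.96 and 7.85 (2.70-fold). GARS1 for glycine read 10.24, 10.25 and 10.13 against 8.99, 8.99 and 9.07 (2.28-fold). AARS1, SARS1 and YARS1 differed by 1.06, 0.94 and 0.85, and IARS1, TARS1 and EPRS1 by 0.56, 0.60 and 0.47. FARSA, the alpha subunit of the phenylalanine enzyme, went the other way at 7.15, 6.85 and 7.01 against 7.93, 7.77 and 7.78 (-0.82 ± 0.10, adjusted p = 0.000163). Its partner FARSB differed by -0.39 and did not pass, nor did HARS1, KARS1, RARS1, VARS1, LARS1 and NARS1, whose differences ran from -0.34 to 0.31.

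The promoters of these genes are shown because a short element in some of them is the known binding motif of ATF4 with C/EBP partners. RefSeq promoters on GRCh38.p14, from 250 bases before to 50 after the gene start, were searched on both strands for TGATGNAA. The motif was in 3.67% of 27305 promoters. Among the 15 largest increases 11 had a promoter sequence and 2 of these held it, ASNS and CHAC1, and among the 15 largest decreases 13 had one and none held it. Counts for the gene lists were added after their values were known. The motif was in 6 of 16 tRNA synthetase promoters (37.5%), 3 of 10 transporter promoters (30.0%) and 2 of 8 amino acid synthesis promoters (25.0%). It was in 2 of 14 promoters of ATF4 regulators (14.3%), 1 of 21 of the endoplasmic reticulum list (4.76%), 1 of 19 of heat shock genes (5.26%, HSPA4L, which was lower with infliximab) and 0 of 18 of the proteasome. The stretches below run 5′ to 3′ along the gene's strand, all before the gene start, and capitals mark the motif, which in CHAC1 and AARS1 lies on the opposite strand. They come from chr7:97872443-97872502 (ASNS, minus strand), chr15:40953236-40953295 (CHAC1, plus strand) and chr16:70289660-70289719 (AARS1, minus strand). A match describes these letters and is not evidence of binding.
ASNS: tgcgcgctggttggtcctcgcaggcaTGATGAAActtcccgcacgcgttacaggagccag
CHAC1: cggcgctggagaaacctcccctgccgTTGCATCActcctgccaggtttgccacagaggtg
AARS1: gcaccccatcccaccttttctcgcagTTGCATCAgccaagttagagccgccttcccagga
Of the 6 tRNA synthetase genes with the motif, AARS1, CARS1, IARS1 and TARS1 were higher with infliximab, NARS1 did not pass, and MARS1 had no tested probe set with a single symbol. The transporter genes with it, SLC38A1, SLC3A2 and SLC7A1, were higher. In amino acid synthesis ASNS and GOT1 held it and among ATF4 regulators CHAC1 and ATF3, of which GOT1 and ATF3 did not pass. The 3 stretches shown all belong to genes called higher.

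Regulators of the ATF4 pathway were higher or did not pass. Of 15 tested, 8 were higher (6.06% of all tested genes were) and none lower, with a median of 0.83. All 8 calls held each time 1 array was left out and in the fit of the 6 arrays alone. ATF4 itself read 10.43, 10.34 and 10.52 against 9.56, 9.52 and 9.54 (1.85-fold, adjusted p = 9.91e-06). ATF5, a related factor, read 9.04, 8.51 and 8.23 against 6.14, 6.09 and 6.14 on its representing probe set (5.54-fold). A second ATF5 probe set was more scattered at 8.97, 7.57 and 6.98 against 5.25, 4.99 and 5.64, and it missed the threshold in the fit of the 6 arrays (adjusted p = 0.0551). TRIB3, a pseudokinase that restrains ATF4, read 9.34, 9.36 and 9.58 against 7.72, 7.83 and 8.02 (2.97-fold). CHAC1, which degrades glutathione, read 6.74, 6.17 and 6.15 against 3.86, 4.33 and 3.84 (5.07-fold). Of the partners of ATF4, JDP2 differed by 1.76, DDIT3 (CHOP) by 1.39, CEBPB by 1.11 and CEBPG by 0.71. ATF3 differed by -0.24 and did not pass, and the 4 eIF2 kinase genes EIF2AK1 to EIF2AK4 stayed between -0.21 and 0.06 without passing. PPP1R15A, a phosphatase subunit that reverses eIF2 phosphorylation, differed by 0.83 ± 0.29 and did not pass.

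The next list holds mTORC1, the kinase complex that promotes growth, with its sensors, inhibitors and targets. Of 18 tested, 4 were higher (6.06% of all tested genes were) and none lower, with a median of 0.17. Without replicate 7, when calls rose over all probe sets, 6 were higher. DDIT4, which restrains mTORC1 through TSC2, read 9.15, 9.09 and 9.06 against 6.38, 6.13 and 6.16. That is a tight difference of 2.88 ± 0.10, or 7.34-fold (adjusted p = 3.64e-10). SESN2, a leucine sensor, read 6.73, 6.26 and 6.28 against 4.71, 4.75 and 4.84 (3.15-fold). EIF4EBP1, which holds the cap-binding factor eIF4E, read 8.17, 8.27 and 8.33 against 7.02, 7.12 and 7.27 (2.17-fold). MTOR, RPTOR, RHEB, TSC1 and RPS6KB1 differed by -0.02 to 0.11 and did not pass.

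RPS6KA2, a ribosomal S6 kinase of the ERK pathway and the remaining called gene of this list, had the largest fitted difference among named genes on a probe set other than the one that represents it. That probe set read 5.93, 5.94 and 5.14 against 1.53, 1.91 and 1.72, a difference of 3.95 ± 0.20, with every 0 h and CDP870 value below the array medians. Its other probe sets differed by much less, 1.08 (called) and 0.26 (not called), so the size depends on the probe set. Replicate 7 was the lowest infliximab value on this probe set, and without it the difference was 4.21. Also among the 15 largest increases were P2RX7, an ATP-gated channel, at 4.72, 5.06 and 5.29 against 3.28, 2.99 and 2.54 (4.25-fold), and TBC1D30, a regulator of Rab GTPases, at 4.2, 4.23 and 3.26 against 1.79, 1.66 and 1.73. The CDP870 values of TBC1D30 were all below the array medians, and 2 of its 3 tested probe sets were called, with a lowest difference of 0.10. The CDP870 values of P2RX7 lay near the array medians, with replicate 13 below, a level not shown to be above background. The second P2RX7 probe set was called with a difference of 0.82.

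Translation factors as a group did not move one way. Of 21 tested 2 were higher, EIF4EBP1 and EIF1 (0.28), and 1 was lower, EIF5, with a median of 0.05. Over all tested genes 6.06% were called higher and 2.14% lower. EIF5 promotes GTP hydrolysis by eIF2 at the start codon, and all 5 of its tested probe sets were called lower. The probe set with the largest decrease read 7.66, 7.44 and 7.77 against 8.86, 8.81 and 8.73 (-1.18 ± 0.12, adjusted p = 3.27e-05), and the representing probe set read 8.90, 8.77 and 9.0 against 9.70, 9.69 and 9.78. No infliximab value reached a CDP870 value on either.

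Secreted stress factors were higher in part. Of 8 tested, 4 were higher (6.06% of all tested genes were) and none lower, with a median of 0.73. VEGFA, the endothelial growth factor, read 7.37, 7.63 and 7.64 against 5.02, 4.78 and 4.65 (6.63-fold), and all 4 of its probe sets were called higher. INHBE, an activin subunit, read 4.87, 5.15 and 5.46 against 2.53, 1.97 and 2.34 (2.88 ± 0.18). STC2, a stanniocalcin, read 5.12, 5.26 and 4.90 against 1.95, 1.87 and 2.95 (2.84 ± 0.23). The CDP870 values of INHBE and of this STC2 probe set were below the array medians, while a second STC2 probe set was above them and gave 3.39-fold. Adrenomedullin, ADM, differed by 1.09 ± 0.23. GDF15, FGF21 and ANGPTL4 differed by 0.09, -0.04 and 0.00 and did not pass.

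In the glycolysis and hypoxia list 9 of 24 were higher (6.06% of all tested genes were) and none lower, with a median of 0.25. Of the enzymes of the main glycolytic chain in this list 1 passed, the enolase isoform ENO2 (0.69, adjusted p = 0.0281), whose call did not hold each time 1 array was left out. SLC2A3, a glucose transporter, read 6.83, 6.89 and 6.52 against 4.79, 4.71 and 4.93 (3.83-fold). ANKRD37, a hypoxia-inducible gene, read 5.33, 5.26 and 5.29 against 4.04, 3.90 and 4.15 (2.40-fold). NDRG1 and PDK1, which restrains pyruvate dehydrogenase, differed by 1.11 and 1.06. PFKFB4 differed by 0.91, BNIP3L by 0.64 and SLC2A1 by 0.51. GPI, ALDOA, TPI1, GAPDH, PGK1, ENO1, PKM and LDHA differed by -0.25 to -0.03 and did not pass, nor did HK2 (0.48) and HIF1A (-0.06). In replicate 7 this list averaged 0.22 above the CDP870 mean, against 0.49 and 0.41 in replicates 5 and 6. With replicate 7 as the only infliximab array 3 genes were called, and with the 6 arrays alone 2.

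**Figure D3:**
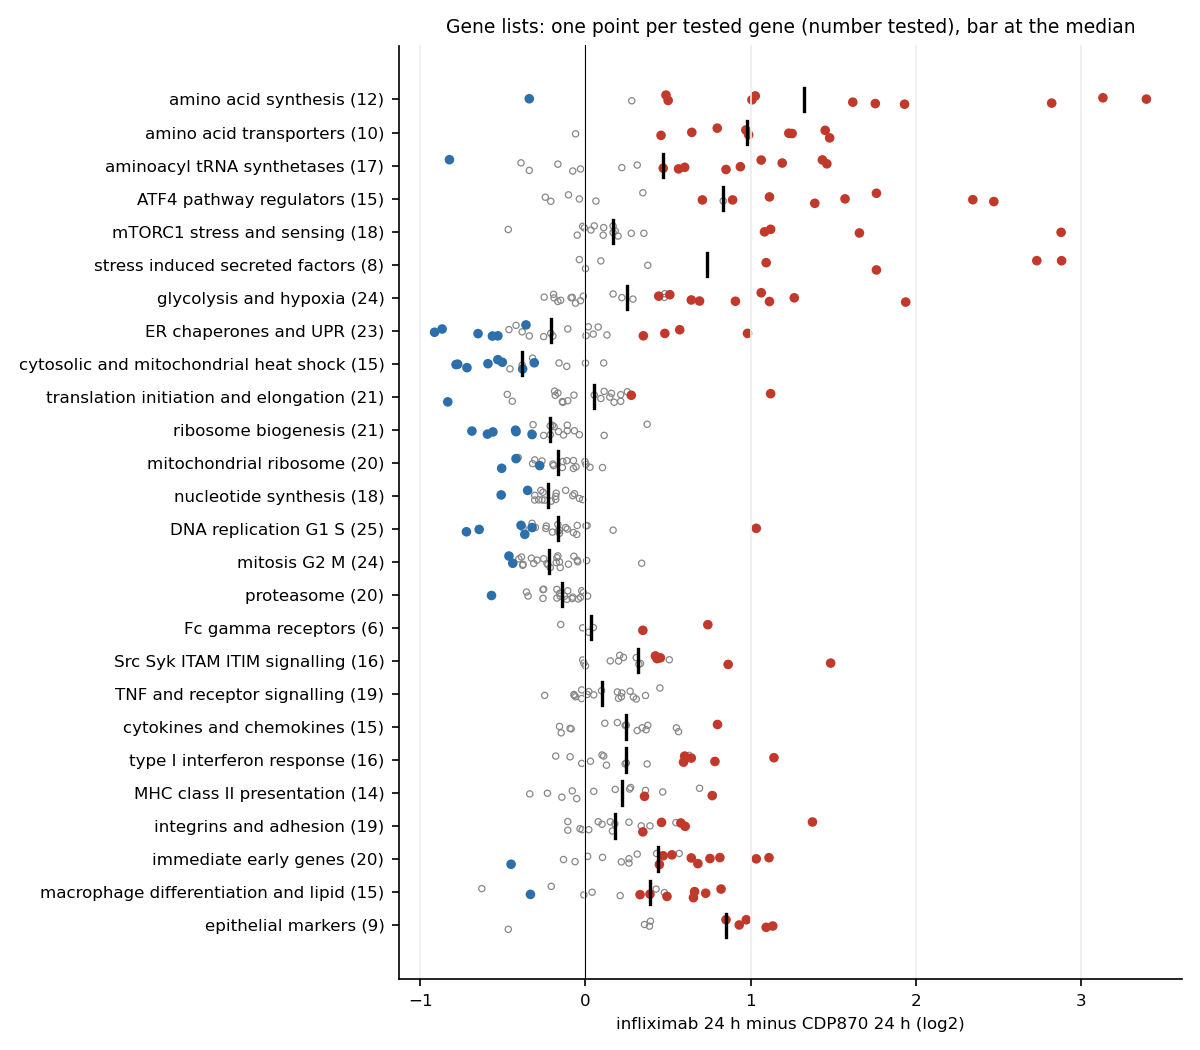
Difference between infliximab and CDP870 at 24 h (x axis, log2) for each tested gene of 26 gene lists (rows, number tested in parentheses). Filled points passed the test, red for higher and blue for lower with infliximab, open points did not, and the black bar is the list's median. The amino acid lists lie to the right, with medians of 1.32, 0.98 and 0.47, and the heat shock list to the left at -0.38.

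The endoplasmic reticulum list moved in both directions. Of 23 tested, 6 were lower (2.14% of all tested genes were), 4 were higher (6.06%) and 13 did not pass. The list's median was -0.21. The lower ones were resident chaperones and their partners. MANF, a secreted chaperone-like factor, read 7.83, 7.73 and 7.91 against 8.62, 8.62 and 8.83 (-0.87 ± 0.10, adjusted p = 9.61e-05). SDF2L1, of the same compartment, read 6.74, 6.65 and 6.66 against 7.55, 7.55 and 7.69 (-0.91 ± 0.12). HSPA5 (BiP), the main chaperone, read 9.45, 9.41 and 9.51 against 10.16, 10.24 and 9.92 (-0.65 ± 0.10). PDIA4 and DNAJB11 were lower by 0.53 and 0.36 on the log2 scale, as was CRELD2 by 0.56. The higher ones were ERN1 (IRE1), the sensor that splices XBP1, at 5.45, 5.75 and 5.57 against 4.77, 4.55 and 4.51 (1.97-fold, 1 of 3 probe sets, another at -0.24), HERPUD1 (0.57), EDEM1 (0.48) and XBP1 (0.35). HSP90B1, CALR and PDIA3 differed by -0.38, -0.42 and -0.46 and did not pass. The calls of CRELD2, EDEM1 and XBP1 did not hold each time 1 array was left out, and in the fit of the 6 arrays alone 2 genes were lower and 1 higher.

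The endoplasmic reticulum stress element, searched on both strands as CCAAT, any 9 bases and CCACG, is shown since it occurs in promoters of both lower and higher members. It was in 22 of 27305 promoters (0.0806%) and in 6 of the 21 of this list (28.6%), a count added after the values were known. HSPA5 and CRELD2 were lower with infliximab, XBP1 was higher, and CALR, CANX and HSP90B1 did not pass. The stretches come from chr9:125241365-125241435 (HSPA5, minus strand), chr22:49918528-49918598 (CRELD2, plus strand) and chr22:28800577-28800647 (XBP1, minus strand) of GRCh38.p14, with the element in capitals, on the opposite strand in CRELD2.
HSPA5: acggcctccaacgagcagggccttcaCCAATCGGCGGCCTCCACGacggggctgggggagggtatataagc
CRELD2: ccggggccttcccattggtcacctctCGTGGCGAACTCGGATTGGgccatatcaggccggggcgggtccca
XBP1: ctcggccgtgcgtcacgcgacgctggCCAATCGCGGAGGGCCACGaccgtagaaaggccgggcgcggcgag
None of the 24 promoters found for the largest increases and decreases held this element.

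Chaperones of the cytosol and mitochondria were lower or did not pass. Of 15 tested, 8 were lower (2.14% of all tested genes were) and none higher, with a median of -0.38. DNAJA1, an HSP40 co-chaperone, read 9.11, 8.90 and 9.40 against 9.94, 9.97 and 9.82 (-0.77 ± 0.12, adjusted p = 0.00131). HSPH1 (HSP110) read 8.69, 9.14 and 9.14 against 9.80, 9.91 and 9.61 on its representing probe set (-0.78 ± 0.13). Another HSPH1 probe set, at 7.15, 6.72 and 7.58 against 8.37, 8.34 and 8.12, had the larger difference of -1.13 ± 0.24, but the call did not hold each time 1 array was left out. HSPA4L, HSPE1, DNAJB1 and STIP1, which links HSP70 to HSP90, differed by -0.72, -0.59, -0.53 and -0.50. DNAJB6 and HSP90AA1 differed by -0.38 and -0.31. HSF1, the heat shock transcription factor, differed by 0.11 and did not pass. The list averaged -0.39, -0.38 and -0.41 relative to CDP870 in replicates 5, 6 and 7, so the 3 infliximab arrays had nearly the same shift. None of the 8 was called in the fit of the 6 arrays alone, and the reason was not tested.

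Several partners of these chaperones were among the 15 largest decreases. FKBP4, an HSP90 co-chaperone, read 6.54, 5.96 and 5.89 against 6.97, 6.97 and 7.07 (-0.87 ± 0.16). CHORDC1, another, read 5.98, 6.65 and 6.84 against 7.41, 7.61 and 7.06. CCT2, a subunit of the chaperonin TRiC, read 9.01, 8.30 and 9.60 against 9.79, 9.87 and 9.78, and DNAJA4 read 3.83, 3.50 and 4.22 against 4.65, 5.09 and 4.29. In the last 3 genes replicate 7 lay close to the CDP870 values, and their calls did not hold each time 1 array was left out. The calls of SKP2 and HACD3 did not hold each time 1 array was left out either. SKP2, a ubiquitin ligase subunit that drives entry into S phase, read 5.95, 4.81 and 5.82 against 6.59, 6.62 and 6.22, with replicate 6 the lowest, and HACD3, of fatty acid elongation, read 6.60, 5.58 and 6.72 against 7.20, 7.33 and 7.01. UNK, an RNA-binding protein, read 5.90, 5.92 and 5.49 against 6.61, 6.67 and 6.69, while its other probe set differed by 0.07. MRPS12, of the mitochondrial ribosome, read 5.12, 4.89 and 5.23 against 5.82, 5.87 and 6.01, on 1 of 4 probe sets, of which 2 were called. EBF3, a transcription factor, read 4.27, 3.99 and 4.09 against 4.96, 5.06 and 4.72, and SPATA31C2 read 2.69, 2.99 and 2.79 against 3.63, 3.63 and 3.83.

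Genes of growth and proliferation had a minority of members called lower, beside 2.14% of all tested genes called lower and 6.06% higher. Called or not, few members lay above CDP870. These were 4 of 25 replication, 2 of 24 mitosis, 2 of 21 ribosome biogenesis and 3 of 20 mitochondrial ribosomal genes. In nucleotide synthesis it was 0 of 18, in the proteasome 1 of 20, among iron genes 2 of 11 and in the respiratory chain 2 of 20. These counts were not tested. Of 25 tested genes of DNA replication and the G1 to S step, 5 were lower and 1 higher, with a median of -0.17. POLE2, a polymerase subunit, differed by -0.72 ± 0.13 and MCM4, of the replicative helicase, by -0.64 ± 0.11, while GINS1, FEN1 and GINS2 differed by -0.39, -0.37 and -0.32. The higher one was CCND1, cyclin D1, at 5.83, 6.02 and 5.30 against 4.99, 4.60 and 4.46 (2.05-fold). Of 24 mitosis genes 2 were lower, CCNB1 (-0.46) and CDC20 (-0.44). Of 21 ribosome biogenesis genes 6 were lower and none higher, led by UTP20 (-0.69), UTP15 (-0.59) and NOP16 (-0.56). Of 20 mitochondrial ribosomal genes 3 were lower, of 18 nucleotide synthesis genes 2, with UMPS of pyrimidine synthesis at -0.51, and of 20 proteasome genes 1, PSMD11 (-0.57). TFRC, the transferrin receptor, read 8.65, 9.10 and 8.70 against 9.57, 9.54 and 9.52 (-0.73 ± 0.11), the only call among 11 iron genes. Limma called none of 20 respiratory chain and ATP synthase genes, beside 19.8% of all tested probe sets at an unadjusted p under 0.05. Their differences ran from -0.26 to 0.03. The 19.8% is on a looser measure than the calls, which took in 2.14% of all tested genes as lower and 6.06% as higher. Against those shares, 0 of 20 does not show that this list was unusually still. None of the calls in the lists of this paragraph was present in the fit of the 6 arrays alone.

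Receptors that could bind the Fc part of infliximab were listed together with their signalling chain. Of 6 tested genes 2 were higher and none lower, beside 6.06% of all tested genes called higher, with a median of 0.03. FCER1G, the signalling gamma chain shared by Fc receptors, read 7.99, 7.76 and 8.10 against 7.20, 7.22 and 7.21 (1.67-fold, adjusted p = 0.000644). FCGRT, the neonatal Fc receptor that recycles IgG, read 7.62, 7.42 and 7.50 against 7.16, 7.13 and 7.21 (0.35 ± 0.09), and its call did not hold each time 1 array was left out. FCGR2A read 5.47, 5.78 and 5.87 against 5.84, 5.69 and 5.53, and FCGR2B 2.96, 2.92 and 2.96 against 2.74, 3.19 and 2.96. The groups overlapped in both, with differences of 0.02 ± 0.11 and -0.02 ± 0.14. FCGR1A was too low on the arrays to be tested.

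Of 16 kinases and adaptors that signal from such receptors, 5 were higher (6.06% of all tested genes were) and none lower. The list's median was 0.32. FYN, a Src family kinase, read 7.72, 7.98 and 7.61 against 6.35, 6.30 and 6.21 (2.80-fold, adjusted p = 4.89e-07), and 3 of its 4 probe sets were called. FGR, another, read 7.01, 6.89 and 6.79 against 6.14, 6.03 and 5.93 (1.82-fold). The adaptors TYROBP and LAT2 and the phosphatase PTPN6 differed by 0.43, 0.42 and 0.45, calls that did not hold each time 1 array was left out. LYN, SYK, BTK and SRC differed by 0.33, -0.02, 0.21 and -0.01 and did not pass. Without replicate 7, 8 genes of this list were called higher, while higher calls over all tested probe sets rose from 1366 to 2119.

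TNF and its receptor pathway gave no call. Limma called none of 19 tested genes, beside 6.06% of all tested genes called higher and 2.14% lower, with a median of 0.10. Against those shares, 0 of 19 does not show that this list was unusually still. Without replicate 7, 3 were called higher, while higher calls over all tested probe sets rose from 1366 to 2119. With replicate 7 as the only infliximab array TNFRSF1A differed by -0.54. TNF itself read 4.61, 4.25 and 4.08 against 3.85, 3.72 and 4.02, a difference of 0.45 ± 0.19 (adjusted p = 0.186). TNFRSF1A read 8.15, 7.98 and 7.35 against 7.86, 7.82 and 7.98, and TNFRSF1B read 6.81, 6.72 and 6.28 against 6.29, 6.36 and 6.24. In both receptors replicate 7 was the lowest of the infliximab arrays and the groups overlapped. Of 15 genes for cytokines and chemokines 1 was higher, near the 6.06% of all genes. This was the monocyte attractant CCL2 at 3.06, 3.15 and 3.67 against 2.78, 2.48 and 2.23, all of the latter below the array medians, and its call did not hold each time 1 array was left out. Without replicate 7, 4 genes of this list were higher, and with it as the only infliximab array 2. IL1B differed by -0.15, IL18 by 0.55 and CXCL8 by 0.38 without passing.

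Interferon, antigen presentation and adhesion genes were higher in a minority of members, beside 6.06% of all genes. Of 16 type I interferon genes 5 were higher, none lower. XAF1, an inducible antagonist of XIAP, read 6.67, 6.43 and 6.32 against 5.31, 5.35 and 5.34 (2.20-fold). Its other probe set differed by 0.34 and was not called. IRF7 and IRF9, transcription factors of the response, differed by 0.78 and 0.59 and IFI35 by 0.64, while MX1, OAS1 and ISG15 differed by -0.09, 0.11 and 0.25 and did not pass. Of 14 MHC class II genes 2 were higher, with HLA-DPA1 at 7.02, 7.10 and 7.16 against 6.35, 6.36 and 6.27 (1.70-fold) and HLA-DPB1 at 0.36, and of 12 class I genes 1, HLA-E (0.51), a share near that of all genes. Of 19 adhesion and migration genes 5 were higher. ITGAL and ITGB2 form the integrin LFA-1. ITGAL read 7.87, 7.31 and 6.68 against 6.08, 5.89 and 5.77 (2.59-fold), and ITGB2 9.99, 9.82 and 9.60 against 9.26, 9.18 and 9.24 (1.49-fold). Replicate 7 was the lowest infliximab value in both and still above all CDP870 values. CCR1, a chemokine receptor, differed by 0.60. In the fit of the 6 arrays alone 2 interferon genes, 1 class II gene and no class I or adhesion gene was called.

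Immediate early genes, which respond first to growth and stress signals, were higher in 9 of 20 members and lower in 1, with a median of 0.44. The shares of all tested genes were 6.06% called higher and 2.14% called lower. KLF2 read 5.47, 5.01 and 5.33 against 4.25, 4.05 and 4.18 (2.16-fold). EGR1 read 5.16, 5.50 and 4.86 against 4.33, 4.01 and 4.08 (2.05-fold), on the 1 of its 3 tested probe sets that was called. IER3, FOSL2, IER2 and DUSP6 differed by 0.81, 0.75, 0.68 and 0.64, and DUSP2 by -0.45. FOS, JUN and MYC differed by 0.43, -0.06 and 0.26 and did not pass. Of 15 genes of macrophage maturation and lipid handling 7 were higher and 1 lower, with a median of 0.39. CD9, a tetraspanin, read 7.22, 6.93 and 7.06 against 6.24, 6.12 and 6.39 (1.77-fold). PPARG, a lipid-sensing receptor, differed by 0.66, LGALS3 (galectin-3) by 0.65 and ABCA1, a cholesterol exporter, by 0.73. FABP5 differed by -0.33 and LPL by -0.63, the latter without passing.

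Among remaining stress lists, 5 of 22 autophagy and lysosome genes were higher and 1 lower. WIPI1, of the early autophagosome, differed by 0.83 ± 0.13 and NPC2, a lysosomal cholesterol carrier, by 0.55 ± 0.09. Of 13 p53 targets 3 were higher, led by TP53INP1 at 4.09, 4.54 and 3.81 against 2.77, 2.92 and 2.52 (1.41 ± 0.22), with all CDP870 values below the array medians, while CDKN1A and MDM2 differed by 0.32 and -0.13 and did not pass. Of 14 apoptosis genes 1 was higher, the death receptor TNFRSF10B (0.68), and 1 lower, BID (-0.35). Over all tested genes 6.06% were called higher and 2.14% lower. In the NRF2 and antioxidant list 2 of 12 were higher, SLC7A11 and SQSTM1 (0.44), and 3 lower, GCLM of glutathione synthesis (-0.75), NQO1 (-0.46) and PRDX1 (-0.40). Of 17 genes of cholesterol and fatty acid synthesis 3 were higher. SREBF1, a master regulator, read 6.27, 6.13 and 5.30 against 5.11, 5.02 and 5.11, and SREBF2 7.48, 7.24 and 6.53 against 6.39, 6.31 and 6.61. Replicate 7 lay at or near the CDP870 level in both. Neither call, nor that of SCD (0.56), was made with replicate 7 as the only infliximab array, and none of the 3 held each time 1 array was left out.

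Markers of other cell types were checked beside these results. Epithelial markers were higher in 5 of 9 tested genes and lower in none, with a median of 0.85. EPCAM, an adhesion molecule, read 6.46, 6.63 and 6.68 against 5.77, 5.65 and 5.56 (1.91-fold, adjusted p = 3.69e-05). KRT18 read 9.01, 8.94 and 8.79 against 7.74, 7.70 and 8.02 (2.13-fold), and KRT19 read 6.22, 6.22 and 6.10 against 5.13, 5.12 and 4.89 (2.19-fold). KRT5 and KRT8 differed by 0.97 and 0.85. KRT7 lay the other way without overlap, at 3.22 to 3.74 with infliximab and 3.94 to 4.11 with CDP870 (-0.47 ± 0.15, adjusted p = 0.0747), and without replicate 7 the list had 6 higher calls and 1 lower. The mean level over the 10 markers with a probe set was 5.39 to 5.51 on the infliximab arrays and 4.89 on each CDP870 array. CDH1 (E-cadherin), the defining epithelial marker, was above the median on none of the 6 arrays. Against 0 h, EPCAM differed by 0.56 with infliximab and by -0.37 with CDP870, and KRT19 by 0.67 and -0.46, so these genes were on both sides of the 0 h level. Of 13 tested monocyte markers 1 was higher, CSF3R (0.52), beside 6.06% of all tested genes. That call did not hold each time 1 array was left out. Without replicate 7, 4 monocyte markers were higher, while higher calls over all tested probe sets rose from 1366 to 2119. Limma called none of the 7 T and NK cell, 5 B cell, 6 erythroid and platelet and 5 fibroblast and endothelial markers tested. The part of epithelial marker levels in the other results was not tested.

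In lists not yet given without replicate 7, its removal moved small counts. Higher calls went from 2 to 1 among Fc receptors, MHC class II and translation genes, from 1 to 2 among MHC class I and apoptosis genes and from 0 to 1 in mitosis and ribosome biogenesis. Lower calls went from 1 to 3 in translation, from 3 to 1 in the mitochondrial ribosome, from 2 to 1 in mitosis, from 1 to 2 among tRNA synthetases, macrophage and proteasome genes, from 0 to 1 in the respiratory chain, and from 1 to 0 in amino acid synthesis and immediate early genes. In the fit of the 6 arrays alone the higher calls were 4 for immediate early genes, 2 each for the macrophage and Src and Syk lists, 1 for p53 targets and 0 for autophagy, apoptosis and lipid synthesis.

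The same contrast at 6 h rests on 6 other arrays. Of 28897 probe sets 2622 were called there (9.07%), and 1037 were called at both times, which is 55.1% of the 24 h calls and 39.55% of the 6 h calls. All but 1 of the 1037 had the same direction. The exception was a probe set of MICAL2, a flavoprotein monooxygenase acting on actin, singled out after its values were seen, at 0.52 at 24 h and -0.49 at 6 h. Of the 184 probe sets at least 2-fold higher at 24 h, 172 were called higher at 6 h too (5.1% of all were) and 121 were also 2-fold higher there. Among the 184 are 24 that were tested only through the infliximab arrays. Of the lower calls, 246 of 516 were lower at 6 h (3.98% of all were). ASNS differed by 3.38 at 6 h and 3.39 at 24 h, DDIT4 by 2.77 and 2.88, VEGFA by 2.79 and 2.73, and MANF by -0.92 and -0.87. Other genes had the larger value at 24 h, such as PFKFB4 at 0.19 and 0.91 and ITGAL at 0.63 and 1.37. For these 2 genes the change between the times was not called (limma interaction adjusted p = 0.502 and 0.506). Replicate 7 read 5.37 for PFKFB4, where the infliximab 6 h arrays read 5.24 to 5.50. For ITGAL it read 6.68, where they read 6.52 to 6.77.

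**Figure D4:**
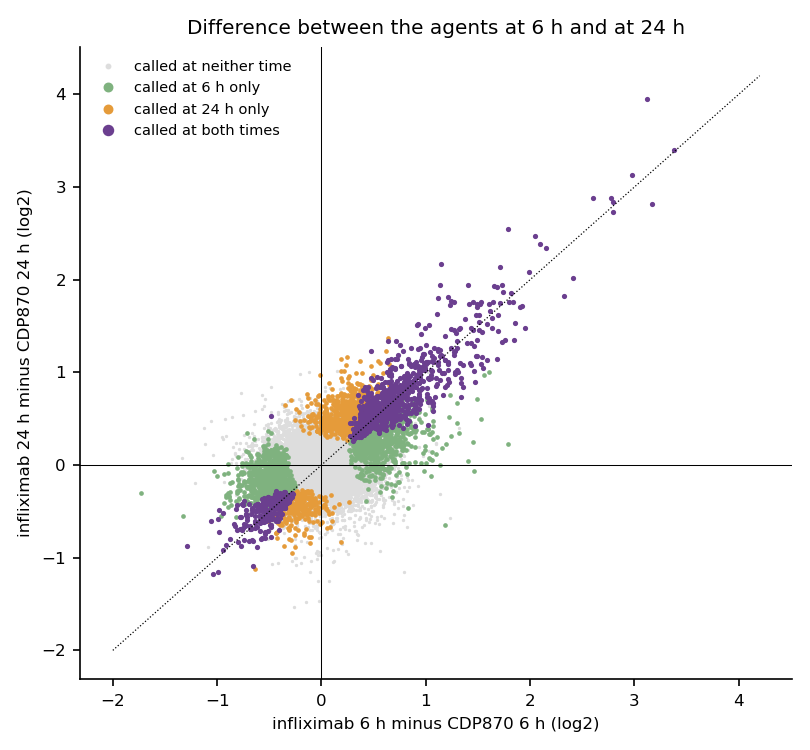
Difference between infliximab and CDP870 at 6 h (x axis) and at 24 h (y axis), in log2 units, 1 point per tested probe set, coloured by the time at which it was called. The dotted line marks equal differences. The largest increases lie near this line, as for ASNS at 3.38 and 3.39.

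Whether the difference between the agents changed between 6 and 24 h was tested as an interaction. With all arrays limma called 0 of 28897 probe sets, with 2642 at an unadjusted p under 0.05 (9.14%) and a smallest adjusted p of 0.3645. The named genes with the smallest p were TIMM17A, TGS1 and UBN1, whose difference was positive at 6 h and negative at 24 h, ZBTB4 (-0.13 at 6 h and 0.73 at 24 h) and BCR (-0.61 and 0.12). Without replicate 7 it called 920 (3.18%), 772 with the larger signed difference at 24 h and 148 with the smaller. These 920 were chosen by how replicates 5 and 6 differ from the 6 h arrays once replicate 7 is left out, so where replicate 7 lies in them is in part set by that choice and is only described. In 880 of them replicate 7 lay nearer to the infliximab 6 h mean than to the mean of replicates 5 and 6. Its median distance was 0.093 from the former and 0.65 from the latter. Over all 28897 tested probe sets it was nearer to the 6 h mean in 20059, and over the 1882 calls at 24 h in 1296.

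Genes of this kind, chosen after their values were seen, include BAG6, a chaperone of protein targeting, at 9.99, 9.87 and 8.84 with infliximab at 24 h. The infliximab 6 h arrays read 8.82, 8.75 and 8.81 for it, and CDP870 averaged 9.35 at 24 h. SUPT6H, a transcription elongation factor, read 6.75, 6.17 and 4.76 at 24 h and 4.62, 4.43 and 4.80 at 6 h. CD164, a sialomucin, went the other way, at 6.81, 6.46 and 8.19 at 24 h and 8.16, 8.39 and 8.11 at 6 h. In all 3 genes replicate 7 matched the 6 h arrays, replicates 5 and 6 lay on the other side of the CDP870 mean, and the 24 h difference depended on which infliximab arrays were used. The amino acid synthesis list averaged 1.443, 1.495 and 1.462 above CDP870 in replicates 5, 6 and 7, and the ATF4 list 0.924, 0.877 and 0.777. The largest increases and decreases were chosen on these same arrays, replicate 7 included. Whether their calls hold in a part of the arrays is therefore in part set by that choice and is only described. All 15 of the largest increases kept their call without replicate 7, and with it as the only infliximab array they differed by 1.53 (TBC1D30) to 3.47 (ASNS). Of the 15 largest decreases, all kept it without replicate 7 and 8 with it as the only infliximab array.

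**Figure D5:**
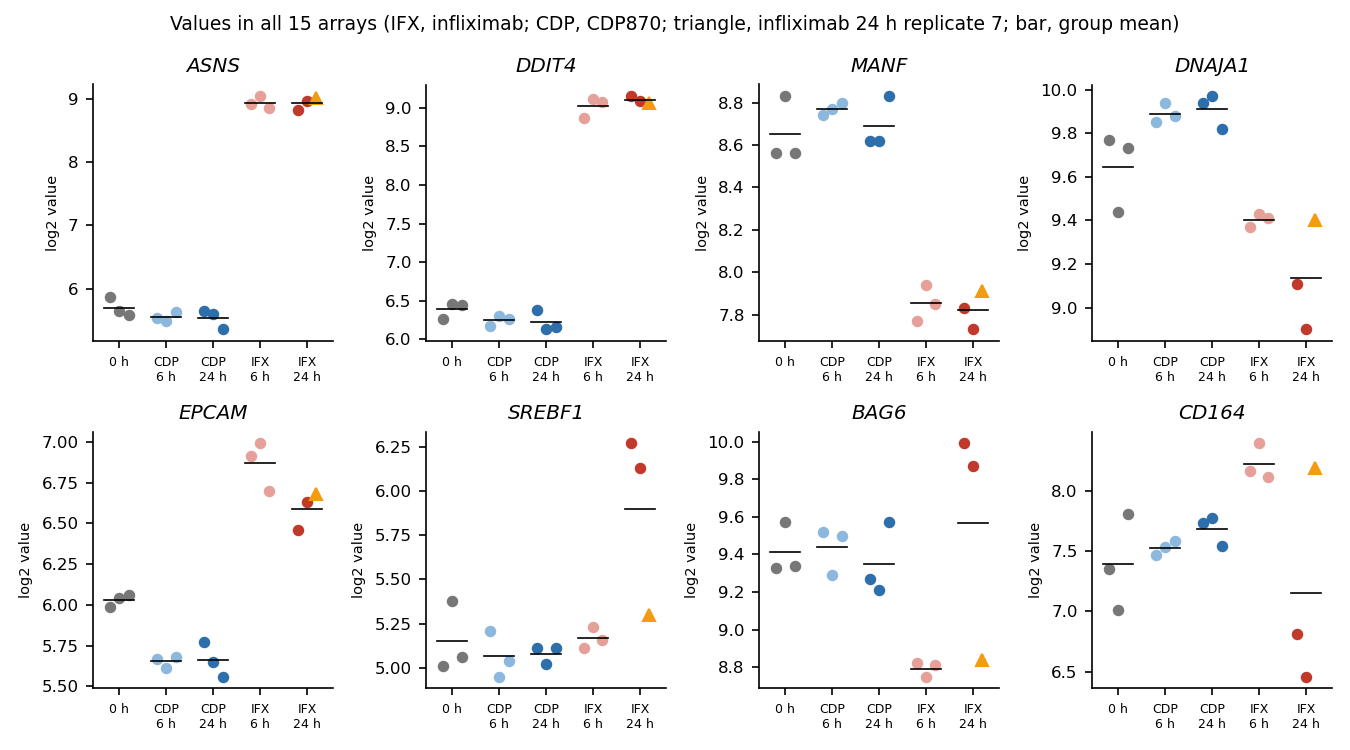
Deposited log2 values (y axis, a different range in each panel) of 8 genes on all 15 arrays by group (x axis), with a bar at each group mean and an orange triangle for infliximab 24 h replicate 7. In ASNS, DDIT4, MANF and EPCAM replicate 7 lies with the other infliximab arrays, and in DNAJA1, SREBF1, BAG6 and CD164 it lies with or near the 6 h arrays, as at 8.84 for BAG6 where the 6 h arrays read 8.75 to 8.82.

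The 0 h arrays place these differences. CDP870 at 24 h had 0 calls against 0 h, with 1359 probe sets at an unadjusted p under 0.05 (4.7%), and infliximab had 1899 (6.57%). Both comparisons share the 0 h arrays, so their values are only set side by side. ASNS averaged 5.70 at 0 h, 5.54 with CDP870 and 8.93 with infliximab at 24 h. HSPA5 averaged 9.79 at 0 h, between 10.11 with CDP870 and 9.46 with infliximab, and HSPH1 on its representing probe set 9.54, between 9.77 and 8.99. For the heat shock list the median difference from 0 h was 0.11 with CDP870 and -0.26 with infliximab. For the amino acid synthesis list it was -0.03 and 1.45.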

How the data were processed

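RNA of 15 THP-1 samples was measured on Affymetrix arrays. The authors deposited log2 probe set values, and the submitters' processing notes name GCOS 1.3.0 and GCRMA with no role or order. The normalization between arrays is not given in the sources used here, and 54675 values per array, 62 of them controls, ran from 0.17 to 11.94. Since arrays have no read depth, the number of arrays limits the precision.

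Gene names came from the platform annotation, updated through RefSeq (41091 probe sets with 1 symbol, 41037 of them matched; 1801 with several and 11721 with none are not named). A probe set was tested if it exceeded its array's median on at least 3 of the 15 arrays. Groups came from the sample titles. The model, from lmFit, contrasts.fit and eBayes of limma 3.58.1 (R 4.3.3), had 5 group means over the 15 arrays. Tests were two-sided, with Benjamini-Hochberg adjustment over all tested probe sets and a threshold of 0.05. Errors beside differences are standard errors of that fit, and folds are 2 to the power of the difference. P-values reflect only how these samples vary within groups.

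The comparison, gene lists and rules were chosen with earlier results of these data known. The rule names the 15 largest increases and decreases without overlap, up to 5 called members per list, the 5 smallest interaction p-values, and TNF and Fc receptors; other list members are given to complete a list. Where a list gene had several tested probe sets, that of highest mean level stands for it, and lists were described without a set test. On simulated data for this comparison (28897 probe sets, 5 runs) the fit recovered 38.5% of changes of 0.5, 89.6% of 1 and 99.1% of 2, and 5.85% of its calls were false. The simulated noise was independent and equally wide in all groups, whereas the infliximab 24 h arrays were more scattered than the CDP870 24 h arrays. These shares therefore hold for the simulated data and do not give the share of false calls in the real data. Alternatives covered normalization, filter, weights, prior, covariate, gene means and arrays left out. Plots used matplotlib 3.10.9 under Python 3.11.15.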

Additional observations from a re-analysis of the deposited data

Results flagged for a closer look

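Without overlap at either time, the difference between the agents had opposite signs at 6 h and 24 h for 3 genes named by the rule. MICAL2, described above, was not named by the rule. The change from 6 h to 24 h was -0.667 for TIMM17A, a subunit of the mitochondrial import channel, -0.707 for TGS1, an RNA cap methyltransferase, and -0.857 for UBN1, a histone chaperone subunit. TIMM17A read 2.98, 3.09 and 3.01 with infliximab and 3.52, 3.40 and 3.37 with CDP870 at 24 h (-0.40 ± 0.08, limma adjusted p = 0.00803), and differed by 0.26 at 6 h. TGS1 differed by -0.26 at 24 h and 0.45 at 6 h, and UBN1 by -0.29 and 0.56, and neither was called at 24 h (limma adjusted p = 0.124 and 0.158). The interaction was not past the threshold for any of the 3.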

How the results depend on the processing

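No paired analysis was possible because no replicate number occurs in more than 1 group. The 1882 calls at 24 h (1366 higher, 516 lower) became 331 (298 and 33) in a fit of the 6 arrays alone and 1062 (825 and 237) with group weights, which count the more scattered infliximab arrays less. The lower calls alone became 322 with no filter on low values and 337 with the hybridisation spike-in level as a covariate. Leaving out 1 array at a time gave 1074 to 2891 calls, with the lowest count without CDP870 replicate 12 and the highest without infliximab replicate 7. For higher calls the range was 843 to 2119 and for lower calls 199 to 772. The 184 called probe sets at least 2-fold higher belonged to 131 named genes, and 94 genes were called at that size when probe sets were averaged to genes. With 1 array left out the 184 probe sets became 164 to 235. The 4 at least 2-fold lower became 15 with array weights, 0 with gene means, 12 with replicate 7 as the only infliximab 24 h array (without infliximab replicates 5 and 6 and 0 h replicate 3), and 3 to 47 with 1 array left out. The interaction of agent and time went from 0 to 920 calls without replicate 7 and stayed at 0 with replicate 7 as the only infliximab 24 h array, a range of 0 to 920 with 1 array left out. The cause of these changes was not tested. Repeated quantile normalization gave 1833 calls (1168 and 665) and centring each array on its median 1770 (1303 and 467). Of the probe sets named by the rule, 87 kept their side of the threshold and 75 fell below it in the fit of the 6 arrays alone, while 144 kept it with group weights and 150 without replicate 7. No difference changed sign under the alternatives run, among results past the threshold.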
